A study of Mus musculus with 6 samples.

Results

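Suppressors of cytokine signalling (SOCS) and the kinases and transcription factor they act on were followed as 10 genes in cultured mouse aortic cells: Socs1, Socs3, Cish, Socs2, Socs4, Socs5, Socs6, Stat3, Jak1 and Jak2. They were taken by gene name from a table of 54532 genes. The LPS cultures (3 libraries) came from wild-type male mouse aorta and received 500 ng/mL lipopolysaccharide, a bacterial outer membrane component, for 8 h. The Vehicle cultures (3 libraries) also came from wild-type male mouse aorta and were kept for 8 h with vehicle in starvation medium. Each of 3 cell isolations gave 1 LPS and 1 Vehicle culture, neither group carries a genetic change, and the labels do not state age, strain or the number of animals per isolation. The comparison asks how the genes of this pathway respond to LPS.

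Cytokines of the interleukin-6 family bind receptors that share the chain gp130, encoded by Il6st. The kinases JAK1 and JAK2 sit on these receptors and phosphorylate STAT3, which then enters the nucleus and switches on target genes, Socs3 among them. SOCS proteins close the loop: each has an SH2 domain that binds phosphorylated receptors or kinases and a SOCS box that recruits Elongin B, Elongin C and Cullin 5 for ubiquitination, and SOCS1 and SOCS3 also carry a short region that blocks JAK activity directly. CIS, encoded by Cish, and SOCS2 are known mainly as brakes on growth hormone and STAT5 signalling.

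The promoters of Cish and Socs3 are shown because they hold the letters TTCNNNGAA, the core to which STAT dimers bind. RefSeq promoter windows of 7 members were searched (Socs1, Socs3, Cish, Socs4, Stat3, Jak1 and Jak2), and among these only Cish and Socs3 held it. The promoters of the other members were not searched. Each window runs from 250 bases before to 50 bases after a RefSeq gene start on GRCm38.p6, 5′ to 3′ on the strand of the gene, and capitals mark the motif. The Cish window is chr9:107296409-107296708 on the plus strand and the Socs3 window is chr11:117969317-117969616 on the minus strand; both lie inside the gene bounds of the count table, which begin further upstream.
Cish: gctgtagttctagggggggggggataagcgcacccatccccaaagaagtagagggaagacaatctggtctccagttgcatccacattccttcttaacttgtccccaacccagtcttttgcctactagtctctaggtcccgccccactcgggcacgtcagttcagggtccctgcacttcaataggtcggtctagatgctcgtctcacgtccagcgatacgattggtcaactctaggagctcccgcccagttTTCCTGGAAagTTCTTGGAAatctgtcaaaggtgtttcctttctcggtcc
Socs3: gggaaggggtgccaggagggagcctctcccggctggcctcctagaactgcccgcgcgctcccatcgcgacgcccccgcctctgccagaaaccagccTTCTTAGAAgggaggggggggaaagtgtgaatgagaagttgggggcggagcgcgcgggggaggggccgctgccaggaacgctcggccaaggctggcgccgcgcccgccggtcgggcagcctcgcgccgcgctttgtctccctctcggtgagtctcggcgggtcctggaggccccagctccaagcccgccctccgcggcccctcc
The motif reads the same on both strands. In Cish it occurs as TTCCTGGAA at positions 1 to 9, counted from the RefSeq start as position 1, and as TTCTTGGAA at positions 12 to 20. In Socs3 it occurs once, as TTCTTAGAA from position −154 to −146. Of 32851 promoter windows of this length, 8.30% hold TTCNNNGAA and 0.457% hold it at least 2 times. The narrower form TTCCNGGAA, every match of which is also a match of TTCNNNGAA, is held by 1.15% of windows and, among the 7 members searched, by Cish alone. A match is a description of the letters in the window and not a measured binding site.

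Library totals ranged from 16509197 to 25082714 counts, and 14508 genes had enough counts to be tested. The cells carry an endothelial label, which their RNA did not bear out: of 10 endothelial markers 2 had enough counts to be tested, Erg (5.47 ± 0.857 CPM under LPS and 8.29 ± 0.973 CPM in Vehicle) and Egfl7 (4.50 ± 1.22 and 2.95 ± 1.14 CPM; SD, n = 3 each), Cldn5 had 0 counts in all 6 libraries, and the 10 together reached 7.97 to 8.90 TPM under LPS and 11.3 to 13.0 TPM in Vehicle. CPM are counts scaled to a common library size with TMM factors, and TPM are also divided by gene length. Fibroblast markers summed to 1056 to 1816 TPM under LPS and 2370 to 2805 TPM in Vehicle (6 genes led by Col1a1 and Col1a2, 1 called higher and 3 lower), pericyte markers to 656 to 959 TPM and 1182 to 1313 TPM (5 genes led by Rgs5 and Pdgfrb, 2 called lower), and smooth muscle markers to 379 to 512 TPM and 470 to 546 TPM (6 genes led by Acta2 and Cnn1, 4 of them tested, 0 called by edgeR, DESeq2 or limma-voom and 0 at an unadjusted p under 0.05). Macrophage markers, led by Csf1r and Cd68, reached 5.14 to 9.14 TPM under LPS and 6.75 to 7.50 TPM in Vehicle, with Ptprc and Adgre1 at 0 counts in every library, and lymphocyte markers, led by Cd79a and Cd4, stayed at or below 1.32 TPM with Ncr1 at 0. In bulk RNA, fewer cells of a type and less RNA per cell cannot be told apart, and the part of these markers in the results on the members was not tested. The level of long genes relative to short ones was also lower under LPS: per doubling of deposited gene length, log2 CPM relative to Vehicle changed by −0.157, −0.259 and −0.294 for LPS 1, 2 and 3, against 0.00794, 0.0238 and −0.0317 for Vehicle 1, 2 and 3, each set against the other Vehicle libraries. Fold changes are therefore given both without and with an offset that removes the fitted trend with length in each library.

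Of the 10 members, all of which passed the filter on low counts, 1 was called higher under LPS and 4 lower at an adjusted p below 0.05. Across all tested genes 24.9% were called higher and 24.4% lower, so the share called higher lay below the background and the share called lower above it, in a list of 10. The 2 sets are unlike in length: the median deposited length was 6648 bases for the members and 4088.5 for all tested genes. The median log2 fold change was −0.23 over the members and −0.00306 over all tested genes. With the offset for deposited gene length, 1 other member was called higher and 0 lower by edgeR (2 and 1 at an unadjusted p under 0.05), against 23.9% and 16.1% of all genes, and the members' median was −0.07 against 0.05 over all genes. With an offset for the longest annotated transcript, 2 members were called higher and 1 lower, against 21.8% and 13.8% of all genes. The direction of several members therefore depended on how length was treated. Without isolation 2, which left 2 libraries a group, none of the 5 calls held (edgeR adjusted p from 0.0963 to 0.156), though the log2 fold changes were −0.54 for Socs2, −0.44 for Socs4, −0.41 for Stat3, −0.41 for Jak1 and 0.35 for Socs3. That fit called 8 genes of the whole table higher and 0 lower (edgeR; 2587 and 2469 at an unadjusted p under 0.05), and with the isolation as a block Socs2, Socs4 and Stat3 were called again. Without isolation 1, Socs1 was called higher and Socs5 and Jak2 lower.

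**Figure D1:**
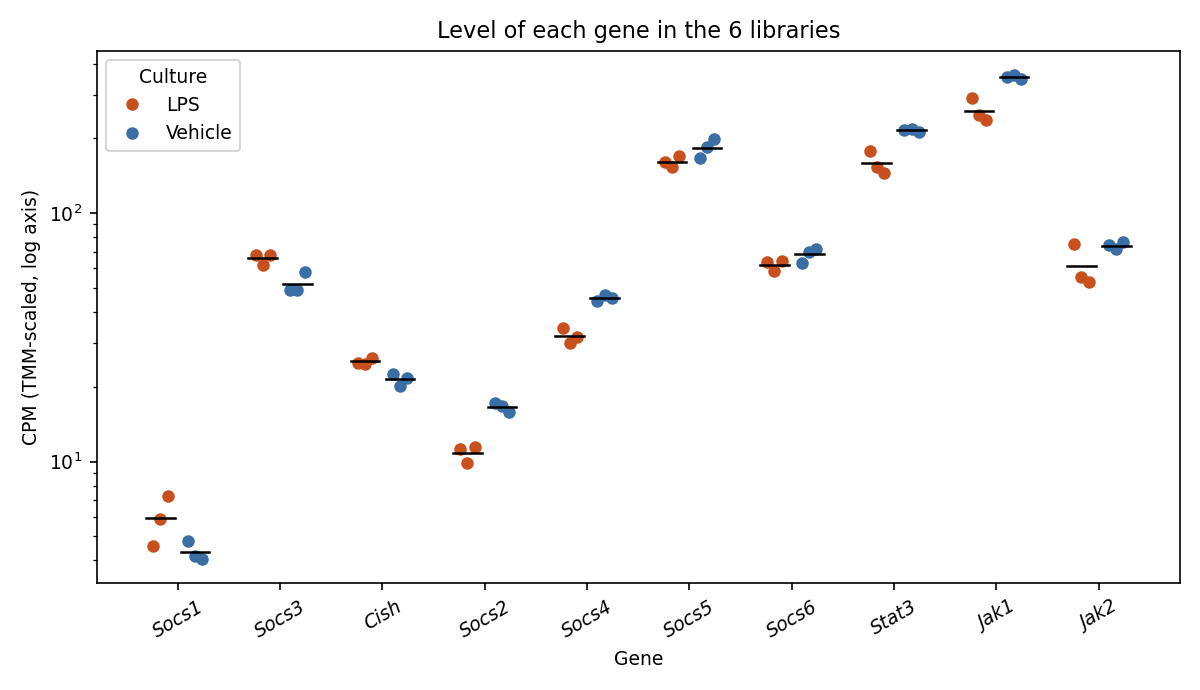
CPM of each gene (TMM-scaled, log axis) in the 3 LPS libraries (left of each pair) and the 3 Vehicle libraries (right); points are libraries in the order 1, 2, 3 and bars are group means. Socs3 and Cish lie higher in all LPS libraries than in any Vehicle library, and Socs2, Socs4, Stat3 and Jak1 lie lower. Among the 76 other pathway genes tested, 36 lay higher and 23 lower without overlap. Those genes were picked with earlier results known and do not stand for all genes. The share over all tested genes was not computed.

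Socs3 (ENSMUSG00000053113, chr11:117966079-117970047, minus strand, GRCm38), the feedback inhibitor of gp130 signalling, rose slightly in the fit without an offset. It stood at 68.1, 61.6 and 68.1 CPM in LPS 1, 2 and 3, against 49.0, 49.1 and 57.7 CPM in Vehicle 1, 2 and 3. The groups did not overlap, and the LPS culture was higher in each of the 3 isolations, by 0.47, 0.33 and 0.24 on the log2 scale. The fitted log2 fold change was 0.34 (edgeR adjusted p = 0.0178, SE 0.10), a 1.27-fold difference. Its gene is 2891 bases long, and its log2 fold change was 0.19 with the offset for deposited gene length (edgeR adjusted p = 0.128) and 0.22 with the offset for transcript length (edgeR adjusted p = 0.0876). The call also ended with library sizes alone (edgeR adjusted p = 0.0556), without Vehicle 1 (0.0846) and without Vehicle 2 (0.0923). On the TPM scale, which shifts with the length trend, Socs3 averaged 65.5 ± 9.11 under LPS and 66.2 ± 4.99 in Vehicle (SD, n = 3 each).

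Socs1 (ENSMUSG00000038037, chr16:10782240-10785536, minus strand), which blocks JAK kinases downstream of interferon receptors, had few counts and was not called. It had 97, 94 and 144 counts in LPS 1, 2 and 3, or 4.58, 5.88 and 7.26 CPM, against 85, 80 and 104 counts in Vehicle 1, 2 and 3, or 4.77, 4.17 and 4.07 CPM. LPS 2 and LPS 3 were above all Vehicle libraries, whereas LPS 1 lay within their range. The log2 fold change was 0.45 (edgeR adjusted p = 0.104, SE 0.210), and it was 0.60 with a call without the library LPS 1 (edgeR adjusted p = 0.0177). With the offset for deposited gene length it was 0.30 (edgeR adjusted p = 0.264).

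Cish (ENSMUSG00000032578, chr9:107296026-107302784, plus strand), a STAT5 target whose product competes for STAT5 docking sites, was called once gene length was taken into account. It stood at 24.9, 24.7 and 26.2 CPM in LPS 1, 2 and 3, against 22.4, 20.1 and 21.7 CPM in Vehicle 1, 2 and 3. Every LPS library was above every Vehicle library, with a mean of 25.3 ± 0.808 CPM under LPS and 21.4 ± 1.17 CPM in Vehicle (SD, n = 3 each). Without an offset the log2 fold change was 0.24 (edgeR adjusted p = 0.0770, SE 0.102). With the offsets for deposited gene length and for transcript length it was 0.49 (edgeR adjusted p = 0.00495) and 0.51 (edgeR adjusted p = 0.00438). Cish was the 1 member called higher with both length offsets. The deposited length of 6419 bases counts the exons of all 5 annotated transcripts of Cish, the longest of which has 4697 bases. Which transcripts the cells expressed was not tested, and both offsets rest on annotated lengths. Of its 6419 exonic bases, 261 overlap Gm17040 (24 counts over the 6 libraries) and 479 overlap Gm17041 (0 counts), both on the opposite strand.

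Socs2 (ENSMUSG00000020027, chr10:95385362-95417180, minus strand), the regulator of growth hormone signalling and like Cish a STAT5 target, fell. It stood at 11.3, 9.88 and 11.4 CPM in LPS 1, 2 and 3, against 17.2, 16.8 and 15.8 CPM in Vehicle 1, 2 and 3. The groups were well apart, and the LPS culture was lower in every isolation, by 0.61, 0.76 and 0.47 on the log2 scale. The log2 fold change of −0.61 (edgeR adjusted p = 0.00350, SE 0.124) was the lowest among the members. With the offset for its deposited length of 9531 bases it was −0.16 (edgeR adjusted p = 0.329), and with the offset for its longest transcript of 4242 bases it was −0.42 and still called (edgeR adjusted p = 0.0180). The deposited length counts the exons of all 14 annotated transcripts of Socs2.

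Socs4 (ENSMUSG00000048379, chr14:47276931-47296102, plus strand), which is linked to control of epidermal growth factor receptor turnover, fell in the fit without an offset. It stood at 34.4, 30.1 and 31.6 CPM in LPS 1, 2 and 3, against 44.2, 46.7 and 45.6 CPM in Vehicle 1, 2 and 3, with no overlap. The log2 fold change was −0.50 (edgeR adjusted p = 0.00259, SE 0.0955). It was −0.22 with the offset for deposited gene length (edgeR adjusted p = 0.0598) and turned to 0.04 with the offset for transcript length (edgeR adjusted p = 0.761) although both use 6877 bases for Socs4 itself; the offsets differ in the lengths of the other genes.

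Socs5 (ENSMUSG00000037104, chr17:87107679-87137583, plus strand), also linked to epidermal growth factor receptor turnover, was the SOCS gene with the highest counts and was not called. It stood at 161, 153 and 170 CPM in LPS 1, 2 and 3, against 167, 184 and 198 CPM in Vehicle 1, 2 and 3, and LPS 3 overlapped with Vehicle 1. Its log2 fold change was −0.18 (edgeR adjusted p = 0.123, SE 0.0925), −0.14 with the offset for deposited gene length and 0.08 with that for transcript length. With library sizes alone it was called lower (log2 fold change −0.26, edgeR adjusted p = 0.0431). Socs6 (ENSMUSG00000056153, chr18:88665224-88927481, minus strand), whose product binds receptor tyrosine kinases such as KIT, had 63.5, 58.4 and 64.2 CPM in LPS 1, 2 and 3, against 63.1, 69.8 and 71.8 CPM in Vehicle 1, 2 and 3, with overlap between the groups. Its log2 fold change was −0.14 (edgeR adjusted p = 0.236, SE 0.0911), but 0.24 with the offset for deposited gene length (edgeR adjusted p = 0.0691, or 0.0231 and called with the isolation as a block) and 0.33 with that for transcript length, where it was called higher (edgeR adjusted p = 0.0257).

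Stat3 (ENSMUSG00000004040, chr11:100885098-100939540, minus strand), the transcription factor of the pathway, was lower in all LPS libraries. It stood at 178, 154 and 145 CPM in LPS 1, 2 and 3, against 216, 219 and 213 CPM in Vehicle 1, 2 and 3. The Vehicle libraries lay close together, and LPS 1 was nearest to them. The log2 fold change was −0.44 (edgeR adjusted p = 0.00427, SE 0.0944) without an offset, −0.00018 with the offset for its deposited 9527 bases (edgeR adjusted p = 0.999) and 0.02 with that for its longest transcript of 6042 bases (edgeR adjusted p = 0.876). Stat3 shares 72 exonic bases with Stat5a on the opposite strand, whose counts sum to 6161 over the 6 libraries against 22565 for Stat3; reads in those bases cannot be told apart without strand.

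Jak1 (ENSMUSG00000028530, chr4:101152367-101265282, minus strand), the main kinase on gp130, moved like Stat3. It stood at 291, 247 and 236 CPM in LPS 1, 2 and 3, against 351, 360 and 348 CPM in Vehicle 1, 2 and 3. The groups did not overlap, and LPS 1 was again the nearest to Vehicle. The log2 fold change was −0.45 (edgeR adjusted p = 0.00447, SE 0.0972), and −0.15 with the offset for deposited gene length (edgeR adjusted p = 0.134) or for transcript length (edgeR adjusted p = 0.114). Jak2 (ENSMUSG00000024789, chr19:29251828-29313080, plus strand), which serves gp130 and several hormone and growth factor receptors, had 75.2, 55.1 and 52.9 CPM in LPS 1, 2 and 3, against 74.3, 71.4 and 76.2 CPM in Vehicle 1, 2 and 3. LPS 1 lay among the Vehicle libraries and the other LPS libraries well below them. Its log2 fold change was −0.28 (edgeR adjusted p = 0.109, SE 0.132), and −0.46 with a call without LPS 1 (edgeR adjusted p = 0.000118). It was −0.17 and 0.04 with the offsets for deposited gene length and for transcript length, neither of them called. Markers of other cell types moved unevenly beside these genes. Of 5 pericyte markers, Pdgfrb and Cspg4 fell (log2 fold changes −0.54 and −0.52), and Rgs5, Abcc9 and Kcnj8 were not called (−0.24, −0.92 and 0.56). Of 6 fibroblast markers, Col1a1, Col1a2 and Pdgfra fell (−0.54, −0.48 and −0.91), Dcn rose (0.57), and Lum and Dpt were not called (0.17 and 0.16).

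**Figure D2:**
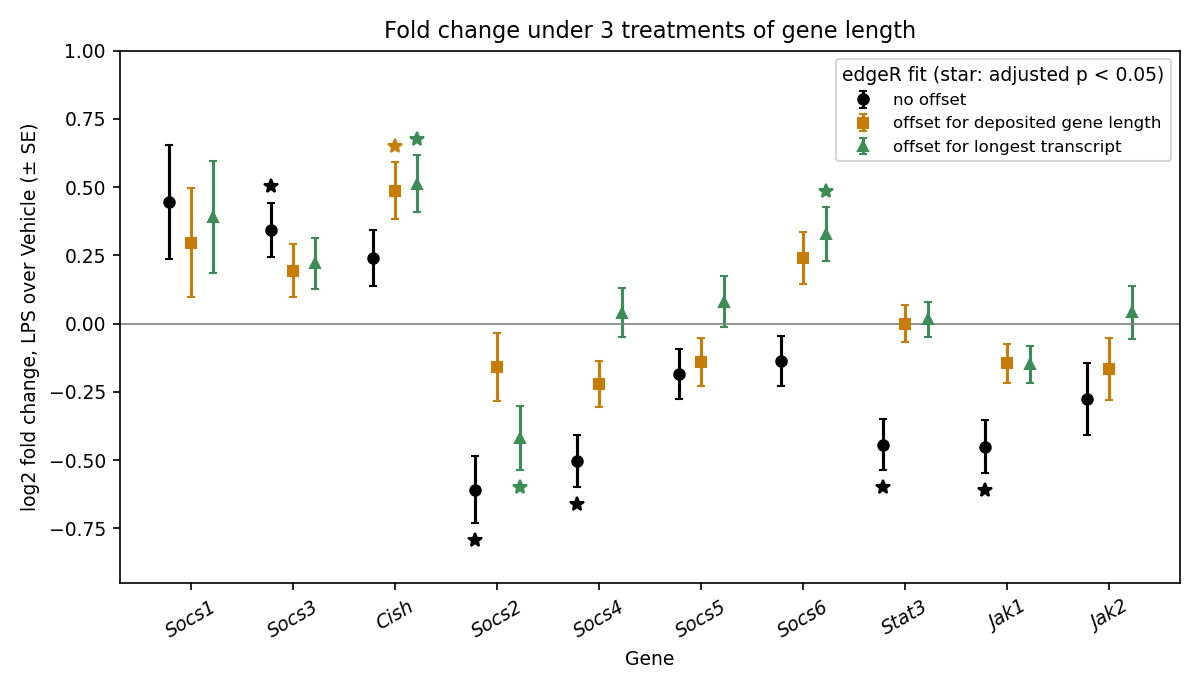
Log2 fold change of LPS over Vehicle with its standard error for each gene, without an offset (circles), with an offset for deposited gene length (squares) and with an offset for the longest transcript (triangles); stars mark adjusted p below 0.05 (edgeR, n = 3 each). Stat3 moves from −0.44 to about 0 with either offset, Cish from 0.24 to 0.49 and 0.51.

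**Figure D3:**
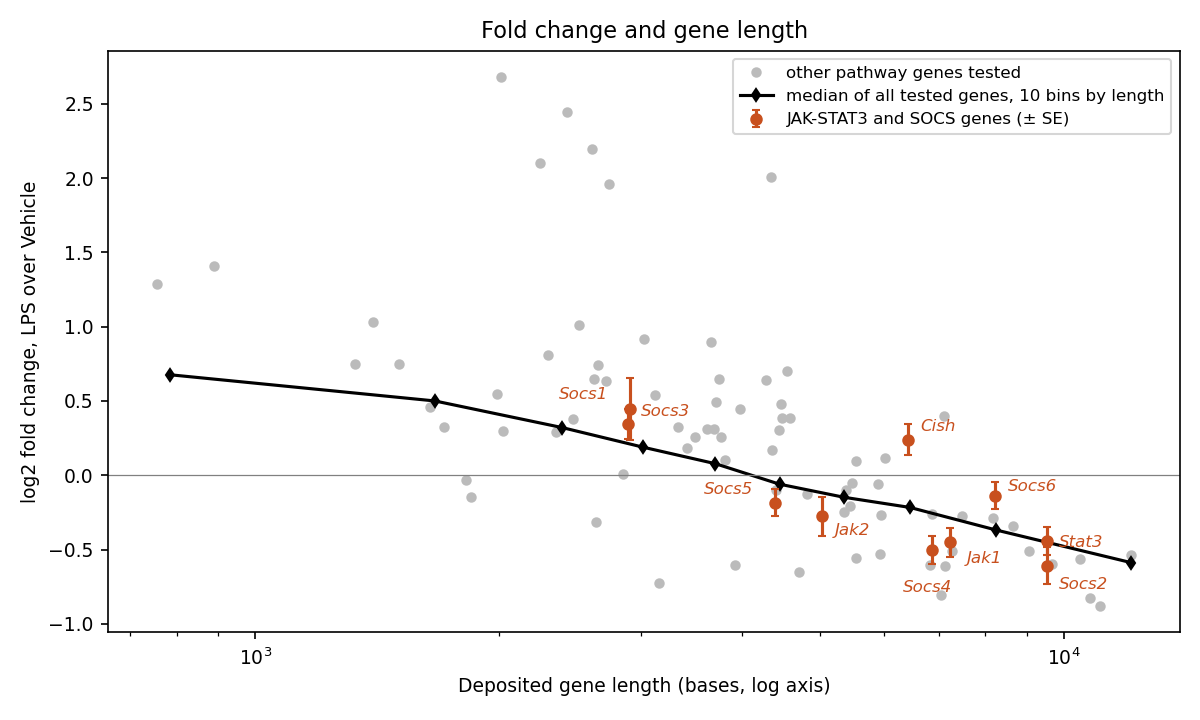
Log2 fold change of LPS over Vehicle without an offset against deposited gene length in bases (log axis) for the 10 members with standard errors, the other pathway genes tested and the medians of all tested genes in 10 bins of length. Bin medians run from 0.68 in the shortest to −0.59 in the longest bin; Stat3 lies on that line at 9527 bases and Cish above it at 6419 bases.

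The length plot places each member against the genes around it. Genes of 7223 to 9580 bases had a median of −0.37 on the log2 scale, next to −0.44 for Stat3, −0.61 for Socs2, −0.45 for Jak1 and −0.14 for Socs6. Those of 5846 to 7222 bases had a median of −0.22, next to 0.24 for Cish and −0.50 for Socs4. Those of 2703 to 3353 bases had 0.19, next to 0.34 for Socs3 and 0.45 for Socs1. Those of 4089 to 4864 bases had −0.06, next to −0.18 for Socs5, and those of 4865 to 5845 bases had −0.15, next to −0.28 for Jak2. By deposited length, Cish was thus the member farthest above the median of its bin.

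Levels per length were ordered within each group. Under LPS, Socs5 averaged 105 ± 11.4 TPM and Jak1 103 ± 23.6 TPM, with overlapping ranges. They were followed by Socs3 at 65.5 ± 9.11, Stat3 at 48.2 ± 10.8 and Jak2 at 35.4 ± 11.3 TPM, each overlapping with its neighbour. Next came Socs6 at 21.7 ± 2.84, Socs4 at 13.4 ± 2.36 and Cish at 11.3 ± 1.08 TPM, of which Socs4 and Cish overlapped, then Socs1 at 5.73 ± 0.699 and Socs2 at 3.28 ± 0.485 TPM, which did not. In Vehicle, Jak1 led with 180 ± 6.47 TPM, followed without overlap by Socs5 at 153 ± 11.2, Stat3 at 83.5 ± 2.81, Socs3 at 66.2 ± 4.99, Jak2 at 54.2 ± 0.992, Socs6 at 30.6 ± 1.75, Socs4 at 24.4 ± 0.843 and Cish at 12.3 ± 0.642 TPM (SD, n = 3 each). Socs2 at 6.43 ± 0.401 and Socs1 at 5.50 ± 0.548 TPM overlapped at the low end in Vehicle. With deposited lengths, Socs3 thus stood above Stat3 under LPS and below it in Vehicle, and Socs1 above Socs2 under LPS. Values overlapped in the Socs3 and Stat3 pair under LPS and in the Socs1 and Socs2 pair in Vehicle. The longest transcripts are shorter than the deposited lengths for Stat3 (6042 against 9527 bases) and Socs2 (4242 against 9531 bases). Levels per transcript length were not computed, and these orders may differ with them.

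The make-up of the SOCS family, with Socs7 as its remaining gene, was computed from TPM, within which the scaling to library size cancels but the length trend does not. Socs5 made up 44.1 ± 0.882% of the family's TPM under LPS and 47.7 ± 1.27% in Vehicle (SD, n = 3 each). Socs3 made up 27.8, 27.1 and 27.4% in LPS 1, 2 and 3, against 20.7, 19.5 and 21.5% in Vehicle 1, 2 and 3, so that its share was larger in every LPS library. The summed TPM of the 8 genes was 239 ± 30.2 under LPS and 321 ± 15.1 in Vehicle (SD, n = 3 each), while Socs3 itself had 65.5 and 66.2 TPM on average. Socs4 took 5.61 ± 0.282% under LPS and 7.59 ± 0.383% in Vehicle, and Socs2 1.37 ± 0.0443% and 2.01 ± 0.210%. Cish took 4.74 ± 0.157% under LPS and 3.84 ± 0.370% in Vehicle, and Socs6 took 9.08 ± 0.0413% and 9.51 ± 0.195%.

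**Figure D4:**
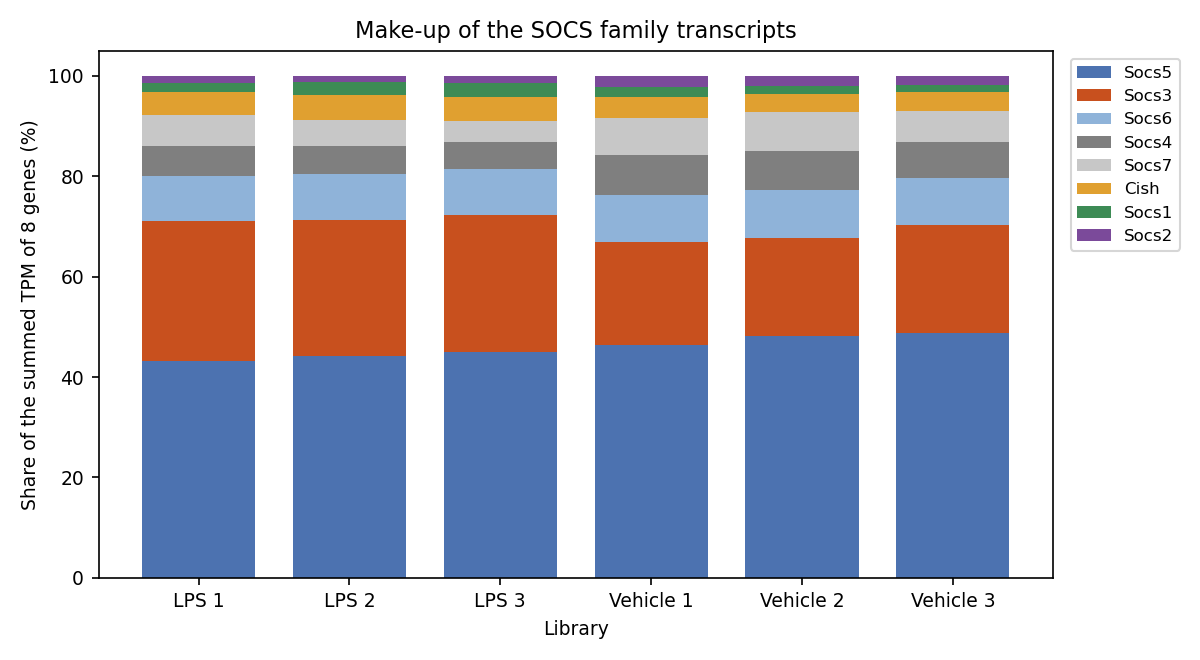
Share of each of 8 SOCS family genes in their summed TPM (percent, stacked bars) in LPS 1 to 3 (left) and Vehicle 1 to 3 (right). Socs5 is the largest share in each library, and the Socs3 share is 27.1 to 27.8% in the LPS libraries and 19.5 to 21.5% in the Vehicle libraries.

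Ratios of counts within a library need no scaling between libraries; 7 pairs were computed, chosen after the values were seen, and the exact permutation test of 3 against 3 libraries gives no p below 0.1. Socs3 had 0.383, 0.401 and 0.471 counts per Stat3 count in LPS 1, 2 and 3, against 0.227, 0.224 and 0.272 in Vehicle 1, 2 and 3 (2-sided exact permutation test, p = 0.1, or 0.14 adjusted over the 7 pairs). Every LPS library was above every Vehicle library, by 0.80 on the log2 scale on average. Cish had 2.21, 2.50 and 2.29 counts per Socs2 count in LPS 1, 2 and 3, against 1.30, 1.199 and 1.37 in Vehicle 1, 2 and 3, again without overlap (exact p = 0.1). Stat3 had between 0.611 and 0.621 counts per Jak1 count in the LPS libraries and between 0.608 and 0.614 in the Vehicle libraries, with overlap (exact permutation p = 0.5). Socs3 per Il6st count averaged 0.0790 ± 0.0210 under LPS and 0.0326 ± 0.00633 in Vehicle, and Cish per Stat5b count 0.787 ± 0.138 and 0.446 ± 0.0363, without overlap in either ratio (SD, n = 3 each; exact permutation p = 0.1). Cish per Stat5a count did not overlap either (exact permutation p = 0.1), and Socs1 per Jak2 count did (exact permutation p = 0.2). Genes within these pairs differ in length, and the part of the length trend in the ratios was not tested.

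Of 94 other genes of the pathway, 76 were tested, of which 31 rose and 18 fell, or 29 and 10 with the offset for deposited gene length. Their lists were picked with earlier results of these data known. Without isolation 2 and without a block, as few as 1 was called higher and 0 lower by edgeR. Of the interleukin-6 family ligands, 4 of 5 tested genes rose, and the list median was 2.01 on the log2 scale. Lif, a gp130 ligand that also needs its own receptor chain, averaged 224 ± 49.4 CPM under LPS and 55.5 ± 13.1 CPM in Vehicle (SD, n = 3 each), a log2 fold change of 2.01 without and 2.05 with the length offset. Il6 rose by 2.44 and Il11 by 2.68 on the log2 scale, and Ctf1, cardiotrophin, had 2.71 ± 0.614 CPM under LPS and 2.75 ± 0.203 CPM in Vehicle without a call (edgeR adjusted p = 0.928).

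Receptor genes moved in both directions. Of 7 tested interleukin-6 family receptor genes, 2 rose and 3 fell (list median −0.34 on the log2 scale), or 1 and 2 with the offset for deposited gene length (list median 0.05). Il6st, which encodes gp130, averaged 876 ± 246 CPM under LPS and 1612 ± 153 CPM in Vehicle, a log2 fold change of −0.88 (edgeR adjusted p = 0.00345, SE 0.178) that became −0.38 with the offset for deposited gene length (edgeR adjusted p = 0.0268) and −0.23 without a call with that for transcript length (edgeR adjusted p = 0.105). The leukemia inhibitory factor receptor gene Lifr had −0.82 on this scale, −0.33 and still a call with the offset for deposited gene length, and −0.13 without a call for transcript length (edgeR adjusted p = 0.345). The oncostatin M receptor gene Osmr had −0.54, and was not called with either offset (0.01 for deposited gene length and −0.15 for transcript length). Il6ra, the specific receptor chain for interleukin-6, had 12.7 ± 1.60 CPM under LPS and 16.0 ± 1.72 CPM in Vehicle and was not called (edgeR adjusted p = 0.0710), but was without LPS 1 (0.0190) or with library sizes alone (0.0471). Of 11 other receptor genes tested, 2 rose and 3 fell. Ghr, the growth hormone receptor upstream of Cish and Socs2, had 320 ± 27.1 CPM under LPS and 455 ± 11.4 CPM in Vehicle, a log2 fold change of −0.51 that was −0.09 and not called with the offset for deposited gene length, but −0.34 and still called with that for transcript length (edgeR adjusted p = 0.00490). The leptin receptor gene Lepr had −0.81, with −0.51 and still a call for deposited gene length and −0.41 without a call for transcript length (edgeR adjusted p = 0.0740). Ifnar2, an interferon receptor chain, rose by 0.32, or by 0.29 with the offset for transcript length (edgeR adjusted p = 0.0223), a call that ended with the offset for deposited gene length (0.24, edgeR adjusted p = 0.0587), with library sizes alone (0.0730), without Vehicle 1 (0.0895), without Vehicle 2 (0.0603) and without isolation 1 (0.0803). Il4ra, the interleukin-4 receptor, was not called without an offset (0.12) and was called higher with the offset for deposited gene length (0.33, edgeR adjusted p = 0.0256).

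Other STAT genes did not rise without an offset. Of 7 tested genes among the remaining JAKs and STATs, 0 rose and 3 fell with edgeR, DESeq2 and limma-voom alike (0 and 3 at an unadjusted p under 0.05), or 1 and 2 with the offset for deposited gene length. Stat5b, which acts on Cish and Socs2, averaged 32.8 ± 5.40 CPM under LPS and 48.1 ± 2.59 CPM in Vehicle, with a log2 fold change of −0.55 that became −0.39 under the offset for deposited gene length (edgeR adjusted p = 0.0131) and −0.20 without a call under that for transcript length (edgeR adjusted p = 0.0980). Stat5a had −0.61, with −0.32 and no call for deposited gene length (edgeR adjusted p = 0.0552) and −0.48 with a call for transcript length (edgeR adjusted p = 0.0157). Stat2, an interferon signalling factor, had −0.53, with −0.33 and a call for deposited gene length and −0.32 without a call for transcript length (edgeR adjusted p = 0.0556). The Stat5a call ended without LPS 2 (edgeR adjusted p = 0.0504) and the Stat2 call without Vehicle 2 (edgeR adjusted p = 0.0574). Stat6, which acts downstream of interleukin-4, had 114 ± 8.10 CPM under LPS and 122 ± 3.62 CPM in Vehicle and was not called.

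Of the 6 tested genes for partners of the SOCS box and Socs7, Elob, Eloc, Rnf7 and Rbx1 rose, and Cul5 and Socs7 fell; with the offset for deposited gene length 4 rose and 0 fell by edgeR, also at an unadjusted p under 0.05. Elob, Elongin B, averaged 177 ± 46.1 CPM under LPS and 86.6 ± 4.04 CPM in Vehicle, and rose by 1.03 on the log2 scale, or by 0.62 with the offset for deposited gene length. Eloc, Elongin C, rose by 0.92 (0.79 with that offset) and the RING protein gene Rnf7 by 0.75 (0.34). Cul5, the cullin scaffold, had −0.29 without an offset, and 0.08 and 0.16 without a call with the offsets for deposited gene length and transcript length. Socs7 had −0.51 without an offset, and −0.21 and 0.03 without a call with these offsets. Of 10 other inhibitors tested, 2 rose and 4 fell, or 3 and 2 with the offset for deposited gene length. The 2 that rose were Ptpn2 (0.54) and Pdlim2 (0.39), and both were also called higher with either offset. Pias3, an inhibitor of STAT3 binding to DNA, fell by 0.61 and had −0.62 with the offset for deposited gene length. Pias1, another gene of that family, had −0.60, with −0.33 and a call for deposited gene length and −0.21 without a call for transcript length (edgeR adjusted p = 0.110). The ubiquitin ligase gene Cblb had −0.56, and was not called with either offset (−0.07 and −0.04). The phosphatase gene Ptpn1 had 114 ± 3.53 CPM under LPS and 107 ± 2.20 CPM in Vehicle, with no call without an offset (edgeR adjusted p = 0.310) and a call with the offset for deposited gene length (0.26, edgeR adjusted p = 0.0123).

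Of 22 tested STAT3 target genes 11 rose and 4 fell (list median 0.31 on the log2 scale), or 10 and 3 with the offset for deposited gene length (list median 0.19). STAT3 activity was not measured, and whether STAT3 or another factor moved these genes was not tested. The acute-phase gene Saa3, the protease inhibitor gene Timp1 and Junb rose by 2.20, 1.41 and 0.81 on the log2 scale, or 2.00, 0.93 and 0.56 with that offset, and Hif1a had 423 ± 19.1 CPM under LPS and 441 ± 26.0 CPM in Vehicle without a call. The 4 that fell were Steap4 (−0.72), Ccnd1 (−0.65), Fosl2 (−0.60) and Osmr (−0.54). Steap4 and Ccnd1 were also called lower with either length offset, and Fosl2 and Osmr with neither. Pim1, not called without an offset, was called lower with both. The counts for whole lists are descriptions beside 24.9% of all genes called higher and 24.4% called lower.

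**Figure D5:**
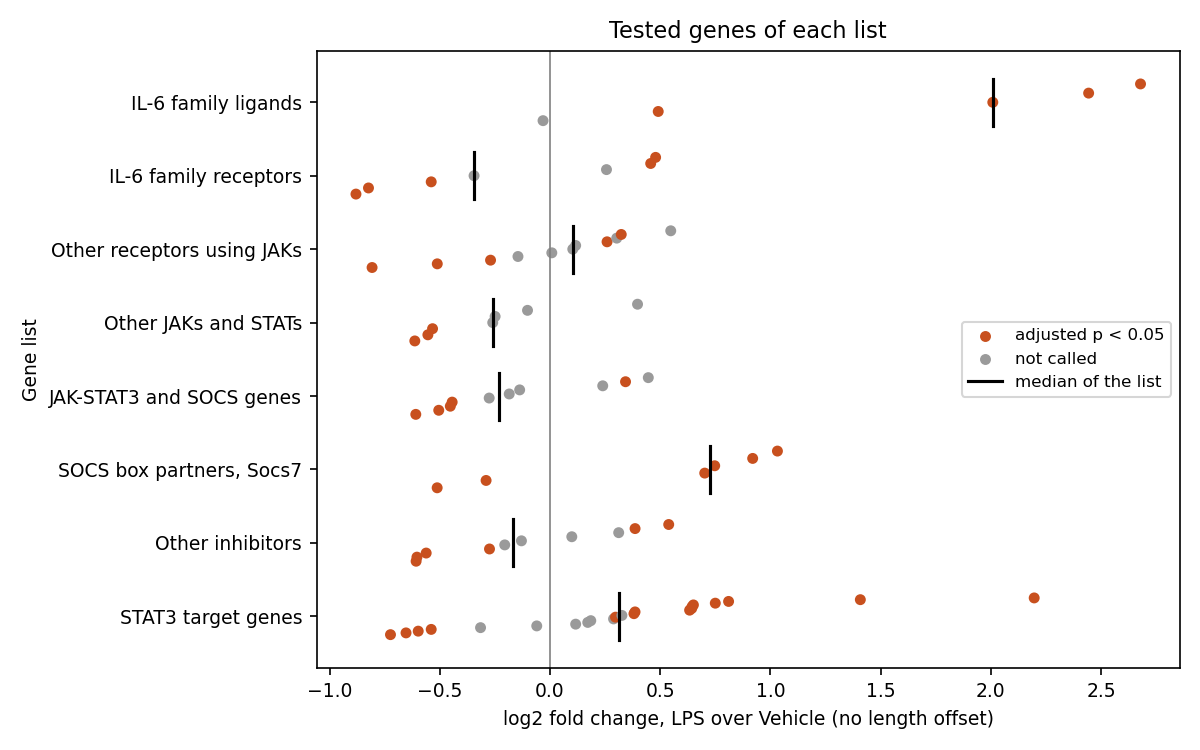
Log2 fold change of LPS over Vehicle without a length offset for each tested gene of the members and of lists of the pathway; coloured points have adjusted p below 0.05 (edgeR, n = 3 each), grey points do not, and black lines are list medians. The interleukin-6 family ligands have a median of 2.01, the SOCS box partners with Socs7 0.72 and the members −0.23.

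The genes most like Socs3 and Stat3 over the 6 libraries were sought among 10074 other genes averaging 5 CPM or more, by Pearson's r of log2(CPM + 1). All these values share the same 6 libraries and 2 groups, so high r is common: 4.81% of the genes had r above 0.9 with Socs3 and 29.9% with Stat3. Nearest to Socs3 were Gypc (r = 0.993), Zmynd19 (r = 0.987) and Med4 (r = 0.985). Nearest to Stat3 were Ice1, Pdgfrb and Erc1, each with r of 1.00, at log2 fold changes of −0.76, −0.54 and −0.76 without a length offset. Gypc, the closest to Socs3, had 106 ± 2.84 CPM under LPS and 96.3 ± 4.98 CPM in Vehicle and was not called (edgeR adjusted p = 0.163).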

How the data were processed

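The labels' protocols name TRIzol for RNA isolation and Novogene for paired-end sequencing. The submitters' processing notes name HISAT2 and the build GRCm38 (mm10). How reads were counted, with which strand setting and annotation, is not given in the sources used here. Per the file headers, the authors' deposited file gives raw counts and a length for each gene. That length equals the summed exons of GENCODE M21 for 97.8% of genes. Gene names turned into dates (27) were restored from gene IDs. Columns M1 to M3, which carry no treatment, were taken as Vehicle 1 to 3 because the LPS columns of the same isolations are named. Where a library had 0 counts of a gene, up to 3 remain possible (0.120 to 0.182 CPM by library), for counting error alone. P-values without a block set the groups against the spread between cultures of a group, each from another isolation, and do not use the pairing. With the isolation as a block, they rest on the spread that remains after differences between isolations are removed.

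Groups were compared over the whole table with edgeR 4.0.16 in R 4.3.3 (TMM, filterByExpr by group, 2-sided quasi-likelihood F-test, Benjamini-Hochberg over all tested genes, calls at adjusted p below 0.05); SEs are the log2 fold change over the root of F. The edgeR fit without offset or block was tried on simulated counts that held no length trend and no isolation effect. The length offsets and the block were not tried in this way. Length offsets were natural splines with 5 degrees of freedom of log2 deviations from gene means over log2 length, fitted per library and entered in edgeR, with the deposited length or the longest GENCODE transcript. TPM used the deposited lengths. The labels state that a number marks 1 cell isolation, so the numbers pair the libraries; deviations from group means correlated by 0.0958, −0.0450 and 0.206 across genes in isolations 1, 2 and 3. Alternatives were DESeq2 1.42.0, limma-voom (limma 3.58.1), other scalings and filters, the replicate block, a threshold of 0.01 and leaving out libraries or isolations. The members, lists, offsets and rule for named genes (all members; per list, the 3 called genes with the largest change and the most abundant without a call; 3 nearest genes to Socs3 and Stat3; 2 leading markers per list) were chosen with earlier results of these data known. Genes other than these, such as Rbx1, Cul5, Socs7, Ptpn2 and Steap4, were named to account for the calls of a list more fully. The results of 1 list are not reported here.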

Additional observations from a re-analysis of the deposited data

How the results depend on the processing

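Among the 10 members, edgeR with DESeq2 size factors, both other filters, DESeq2, limma-voom and the replicate block (3706 genes higher and 3693 lower) kept every call and direction. The count of members called higher, 1 without an offset, was 0 with library sizes alone and at a threshold of 0.01, 2 with the transcript length offset and 2 with the offset for deposited gene length and the replicate block. The count called lower, 4, was 0 with the offset for deposited gene length, 1 with that for transcript length and 0 with the offset for deposited gene length and the replicate block. Leaving out libraries or isolations gave 0 to 3 members higher and 0 to 7 lower, 1 to 34 pathway genes higher and 0 to 24 lower, and 8 to 4424 genes of the whole table higher and 0 to 4522 lower. All low ends occur in the fit without isolation 2 and without the block. In it edgeR called 8 genes higher and 0 lower (2587 and 2469 at an unadjusted p under 0.05). The low end of 0 members higher was also reached without Vehicle 1, without Vehicle 2, and without isolation 2 with the block. With the block, an alternative added after the data were seen, 2322 and 2296 genes were called without isolation 2. Socs2, Socs4 and Stat3 were among those lower, and the cause was not tested. Without isolation 1 and with the block, 7 members were called lower. The 18 pathway genes called lower became 10 with the offset for deposited gene length, 11 with the block added and 6 with that for transcript length. Over all genes 3616 were higher and 3534 lower, 2339 and 1998 were lower with the offsets for deposited gene length and transcript length, and 2309 were higher and 2223 lower at the threshold of 0.01. Of all genes called, 50.6% were higher without an offset and 59.7% and 61.2% with these offsets.

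Log2 fold changes of genes named by rule changed sign as follows, beside Cul5 and Socs7, whose values stand in the report. With the offset for deposited gene length Socs6 had 0.24, Il6ra 0.0480, Hif1a 0.14, Irf9, an interferon signalling factor, 0.0493 and Osmr 0.0102, and with the block added 0.24, 0.0552, 0.14, 0.0492 and 0.00986. With the offset for transcript length Socs4 had 0.0398, Socs5 0.0802, Socs6 0.33, Stat3 0.0154, Jak2 0.0415, Il6ra 0.31, Hif1a 0.22 and Irf9 0.0138. Leaving out single libraries moved Ctf1 between −0.205 and 0.11, and it had 0.13 without isolation 3, with or without the block. Without isolation 2 Hif1a had 0.00517, or 0.00617 with the block. Socs1 had the fewest counts of the members, at most 144 a library; how much of its SE is counting error was not tested.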
